A study of Homo sapiens with 12 samples.

Results

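The YAP-TEAD pathway and its CCN targets were followed as 10 genes, chosen by name and matched to the row symbols of the gene tables: the targets CCN1, CCN2, ANKRD1 and AMOTL2, the coactivators YAP1 and WWTR1, the transcription factors TEAD1 and TEAD4, and the kinases LATS1 and LATS2. All 10 were among the 17197 deposited symbols, and all 10 passed the filter on low counts, which left 13171 genes. The 12 RNA sequencing libraries came from AC16 cells, an established human line made by fusing adult ventricular heart cells with a transformed fibroblast line. There were 4 groups of 3 libraries: siNC, the negative control siRNA (libraries 1 to 3); siEP300, an siRNA against EP300 (4 to 6); and the same siRNAs followed by hydrogen peroxide, siNC.H2O2 (7 to 9) and siEP300.H2O2 (10 to 12). Every group went through jetPRIME transfection in medium lacking serum. Where given, H2O2 followed 12 h later for 1 h; its concentration reads 200 mM in the labels, and that unit could not be checked. RNA was taken 48 h after complete medium came back. No label tells if the 3 libraries of a group were grown as separate cultures; the p-values therefore cover the spread between these samples alone, which may be technical.

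YAP1 and its paralog TAZ, the product of WWTR1, are coactivators that carry no DNA-binding domain of their own and act through the TEAD factors. The Hippo kinases LATS1 and LATS2 phosphorylate them, which holds them in the cytoplasm or leads to their breakdown, while cell spreading and tension favour their entry into the nucleus. CCN1 and CCN2, secreted matricellular proteins also known as CYR61 and CTGF, ANKRD1, a stress-responsive protein of heart muscle, and AMOTL2, which binds YAP at junctions and restrains it, are widely used readouts of their activity, and LATS2 is itself a target. EP300 is a lysine acetyltransferase that acts at enhancers and promoters.

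EP300 was lower in both groups given its siRNA. It stood at 101, 69.1 and 80.1 CPM (counts scaled to library size) in siNC against 36.3, 36.8 and 36.7 CPM in siEP300, and at 59.9, 80.4 and 89.9 CPM in siNC.H2O2 against 30.1, 26.9 and 26.5 CPM in siEP300.H2O2. A treatment field of the labels names another gene, MLF1, for the same 6 samples; titles were followed. Estimated counts summed to between 16081437 and 19033679 per library. Of 16 cardiomyocyte markers 5 passed the filter, and the sarcomere genes TNNT2, MYH6 and MYH7 averaged 0.0308, 0.00452 and 0.00452 CPM over the 12 libraries; the natriuretic peptide NPPB, GATA4 and TTN averaged 42.6, 10.5 and 5.34 CPM. All 10 fibroblast markers passed, with COL1A1 at 4150 CPM. Endothelial markers (6 of 7 passed) summed to 37.6 to 44.9 CPM in siNC and 19.7 to 21.7 CPM in siEP300, and to 34.7 to 39.5 CPM in siNC.H2O2 and 16 to 17.6 CPM in siEP300.H2O2, with CDH5, a defining one, averaging 0.0409 CPM. EGFL7 made up most of the sum in siNC (27.3 CPM, against 6.41 CPM in siEP300), and TEK rose (4.02 to 9.29 CPM; log2 fold change 1.21, and 1.28 with H2O2, edgeR adjusted p = 1.5e-06 and 3.3e-06). In control siRNA cells the epithelial sum was 355.7 to 398 CPM without and 576 to 628 CPM with H2O2, and the smooth muscle sum 137 to 145 and 202 to 216 CPM. KRT8 and KRT18 made up most of the epithelial sum (means of 91.3 and 284 CPM in siNC, 137 and 451 CPM in siNC.H2O2), while CDH1 went from 1.11 to 0.393 CPM. SMTN made up most of the smooth muscle sum (83.4 and 149 CPM), while LMOD1 went from 10.0 to 5.93 CPM. The part of these markers in the results was not tested. In bulk samples such as these, fewer cells of a type and less RNA per cell cannot be told apart.

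The 3 targets CCN1, CCN2 and ANKRD1 rose with EP300 siRNA and with H2O2 and were highest in the libraries that had both, while AMOTL2 fell slightly with EP300 siRNA. TEAD4, LATS1 and LATS2 rose with EP300 siRNA whether or not H2O2 was given, WWTR1 fell with it in H2O2-treated cells, and YAP1 did not pass the test in any comparison. With EP300 siRNA and no H2O2, 7 of the 10 genes were called higher and 1 lower, by edgeR's quasi-likelihood test at an adjusted p under 0.05. Among all 13171 genes tested, 30.1% were called higher and 31.4% lower (61.5% in either direction). The median log2 fold change was 0.55 over the 10 genes and -0.0042 over all genes. The 10 genes were chosen with earlier results of these data known, so such counts and medians beside all genes do not test the set.

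**Figure D1:**
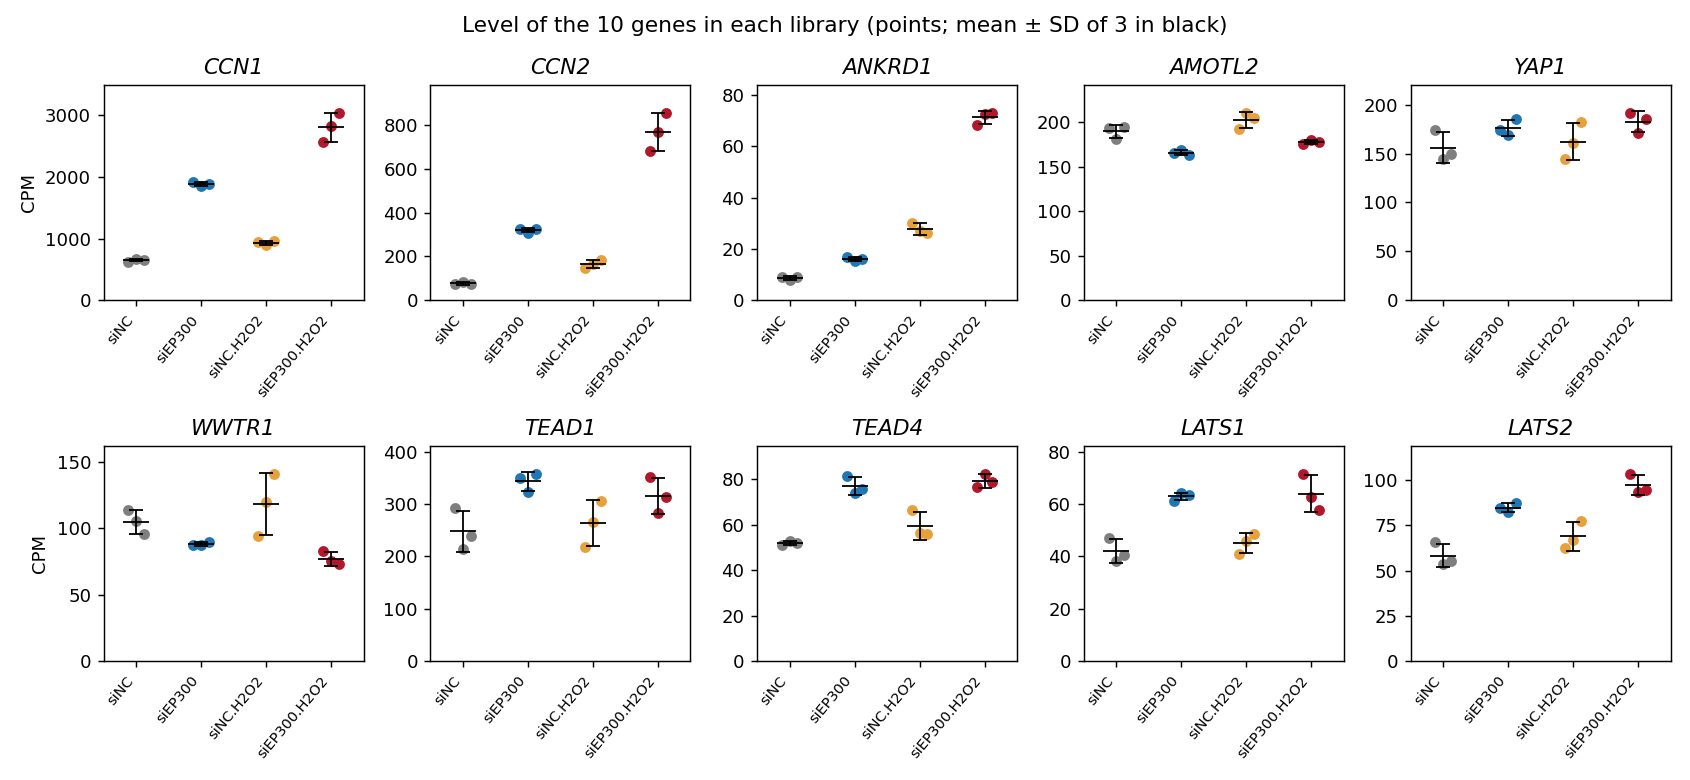
Level of each of the 10 genes in CPM (vertical axis from 0, its own scale per panel) in the 4 groups; each point is a library, and the black marks give the mean ± SD of 3 libraries. CCN1, CCN2 and ANKRD1 reach their highest levels in siEP300.H2O2, up to 3036, 855 and 73.0 CPM, while the groups of YAP1 overlap.

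CCN2 and ANKRD1 are classical TEAD-bound genes, and the stretch before their start sites is shown because it carries the letters that TEAD factors recognise. Promoter sequences came from RefSeq (GRCh38.p14), which matched 7 of the 10 genes; CCN1, TEAD1 and TEAD4 were not matched. The 250 bases before each start were searched on both strands for the TEAD motif GGAATG and for the SRF-binding CArG box. They were also searched for TGANTCA, a loose form of the AP-1 motif with N as any base. Its matches overlap none of the TEAD matches. The CCN2 window lies at chr6:131951373-131951622 on the minus strand. It is printed 5′ to 3′, with the matches to GGAATG in capitals.
CCN2: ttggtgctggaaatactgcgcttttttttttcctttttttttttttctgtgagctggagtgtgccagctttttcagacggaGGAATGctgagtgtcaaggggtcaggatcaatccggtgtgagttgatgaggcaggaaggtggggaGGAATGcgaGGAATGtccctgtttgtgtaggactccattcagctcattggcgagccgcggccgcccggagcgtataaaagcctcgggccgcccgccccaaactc

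CCN2 held 3 TEAD matches, which begin 169, 104 and 95 bases before the start. ANKRD1 held 2, which begin 220 and 128 bases before the start, and between them an AP-1 match that begins at 195. In GENCODE, 189 of the 250 bases of this window are ANKRD1 exon, and the proximal TEAD match lies inside that exon. AMOTL2, the target that fell, has 2 annotated starts: no match lay before the upstream one, and before the other a single match on the opposite strand begins at 69. That second window lies inside the annotated gene, and 147 of its 250 bases are AMOTL2 exon. The stretches of 30 bases around these matches follow, each with its match in capitals, at chr10:90921290-90921319, chr10:90921198-90921227, chr10:90921265-90921294 and chr3:134374499-134374528, all on the minus strand.
ANKRD1 distal TEAD: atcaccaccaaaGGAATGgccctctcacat
ANKRD1 proximal TEAD: gacactgagtctGGAATGaaaattcacctg
ANKRD1 AP-1: cacatttcttccTGATTCAcatattcagca
AMOTL2 TEAD: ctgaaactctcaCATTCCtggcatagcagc

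YAP1 held 1 TEAD match, which begins 162 bases before its start, and LATS1 held 1 AP-1 match before 1 of its 2 starts. All 250 bases of both of these windows are annotated as exon, of a neighbouring gene for YAP1 and of LATS1 and a neighbour for LATS1. The AP-1 matches read TGATTCA in ANKRD1 and TGAATCA in LATS1, with T and A at N and not C or G. No TEAD match was in the windows of WWTR1, LATS1 and LATS2, and none of the 10 windows of these genes held a CArG box. Of 35116 RefSeq windows of the same length, 11.9% held GGAATG, 6.6% the loose motif TGANTCA and 1.2% a CArG box. A match here describes letters, not binding, and enhancers lie outside these windows.

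**Figure D2:**
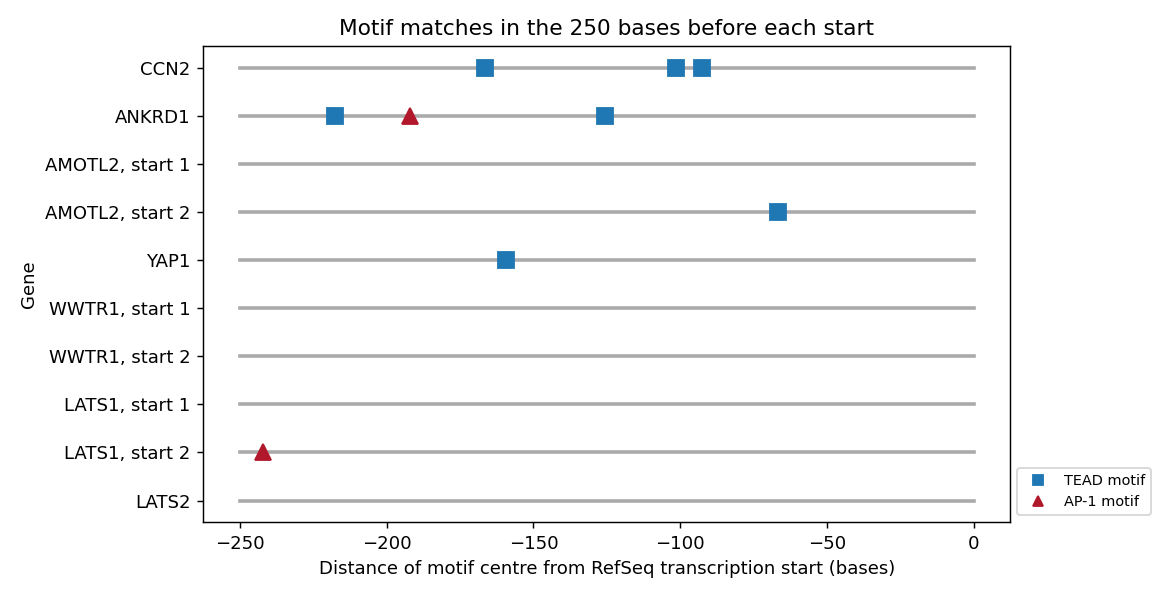
Matches to the TEAD motif (squares) and the loose AP-1 motif TGANTCA (triangles) in the 250 bases before each RefSeq start, for the 10 windows of 7 genes. The horizontal axis is the distance of the match's centre from the start in bases. CCN2 has 3 TEAD matches and ANKRD1 has 2 with an AP-1 match between them.

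CCN2, on chromosome 6 from 131948176 to 131951373 (GRCh38, minus strand), showed the largest change of the 10 genes with EP300 siRNA. The libraries measured 72.4, 83.4 and 73.5 CPM in siNC and 325, 308 and 324 CPM in siEP300. The H2O2-treated controls held 147, 167 and 185 CPM, and siEP300.H2O2 had 679.8, 769.99 and 855 CPM. No 2 groups overlapped. The log2 fold change with EP300 siRNA was 2.06 ± 0.09 (SE, edgeR adjusted p = 2.3e-10) without H2O2 and 2.21 ± 0.09 (edgeR adjusted p = 1.1e-10) with it, which is 4.17-fold and 4.62-fold. In control siRNA cells H2O2 raised CCN2 by 1.12 ± 0.09, and in EP300 siRNA cells by 1.27 ± 0.09 (edgeR adjusted p = 3.8e-07 and 1e-07).

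CCN1, on chromosome 1 from 85580761 to 85583962 (plus strand), was the most abundant of the 10. It measured 625, 667 and 658 CPM in siNC and 1921, 1846 and 1888 CPM in siEP300. After H2O2 the 3 control siRNA libraries held 937, 893 and 957 CPM and the 3 EP300 siRNA libraries 2559.6, 2821 and 3036 CPM. The 4 groups did not overlap. EP300 siRNA raised it by 1.54 ± 0.06 on the log2 scale without H2O2 (edgeR adjusted p = 9.8e-11) and by 1.59 ± 0.06 with H2O2 (edgeR adjusted p = 6.9e-11). The H2O2 effect was smaller, at 0.52 ± 0.06 under control siRNA and 0.57 ± 0.06 under EP300 siRNA (edgeR adjusted p = 1.5e-05 and 7.2e-06).

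ANKRD1, on chromosome 10 from 90912096 to 90921276 (minus strand), started from the lowest count level of the 10 and followed H2O2 more than the siRNA. The libraries of siNC held 9.08, 7.92 and 9.01 CPM and those of siEP300 17, 15.2 and 16.1 CPM. In siNC.H2O2 they held 30.3, 26.8 and 26.1 CPM and in siEP300.H2O2 68.3, 72.6 and 73.0 CPM. Again no groups overlapped. H2O2 raised ANKRD1 by 1.68 ± 0.08 under control siRNA and by 2.14 ± 0.08 under the EP300 siRNA (edgeR adjusted p = 1.6e-09 and 1.4e-10). EP300 siRNA raised it by 0.90 ± 0.09 without H2O2 (edgeR adjusted p = 6.1e-07) and by 1.36 ± 0.07 with it (edgeR adjusted p = 8.2e-10).

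ANKRD1 was the 1 gene of the 10 whose EP300 siRNA effect differed between H2O2-treated and untreated cells, by 0.47 ± 0.11 (edgeR interaction, adjusted p = 0.038). Of all genes tested, 3.33% passed that test, 1.12% in the higher direction. The call was lost, with differences of 0.42 to 0.50 and adjusted p of up to 0.11, when any of 9 libraries was left out: 1 and 3 of siNC, 4, 5 and 6 of siEP300, 8 and 9 of siNC.H2O2 and 11 and 12 of siEP300.H2O2. For CCN2 the difference was 0.15 ± 0.13 (edgeR adjusted p = 0.65) and for CCN1 0.06 ± 0.09 (edgeR adjusted p = 0.81).

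AMOTL2, on chromosome 3 from 134355874 to 134375479 (minus strand), went the other way by a small amount. It measured 194, 181 and 195 CPM in siNC and 166, 169 and 163 CPM in siEP300, and 193, 210.3 and 205 CPM in siNC.H2O2 against 175, 180 and 178 CPM in siEP300.H2O2. In both pairs each library with EP300 siRNA was below each with control siRNA. It fell by 0.20 on the log2 scale without H2O2 (SE 0.05, edgeR adjusted p = 0.0035) and by 0.19 with it (SE 0.05, edgeR adjusted p = 0.0047). Its H2O2 effects, 0.09 ± 0.05 and 0.10 ± 0.05, did not pass the test (edgeR adjusted p = 0.17 and 0.15).

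**Figure D3:**
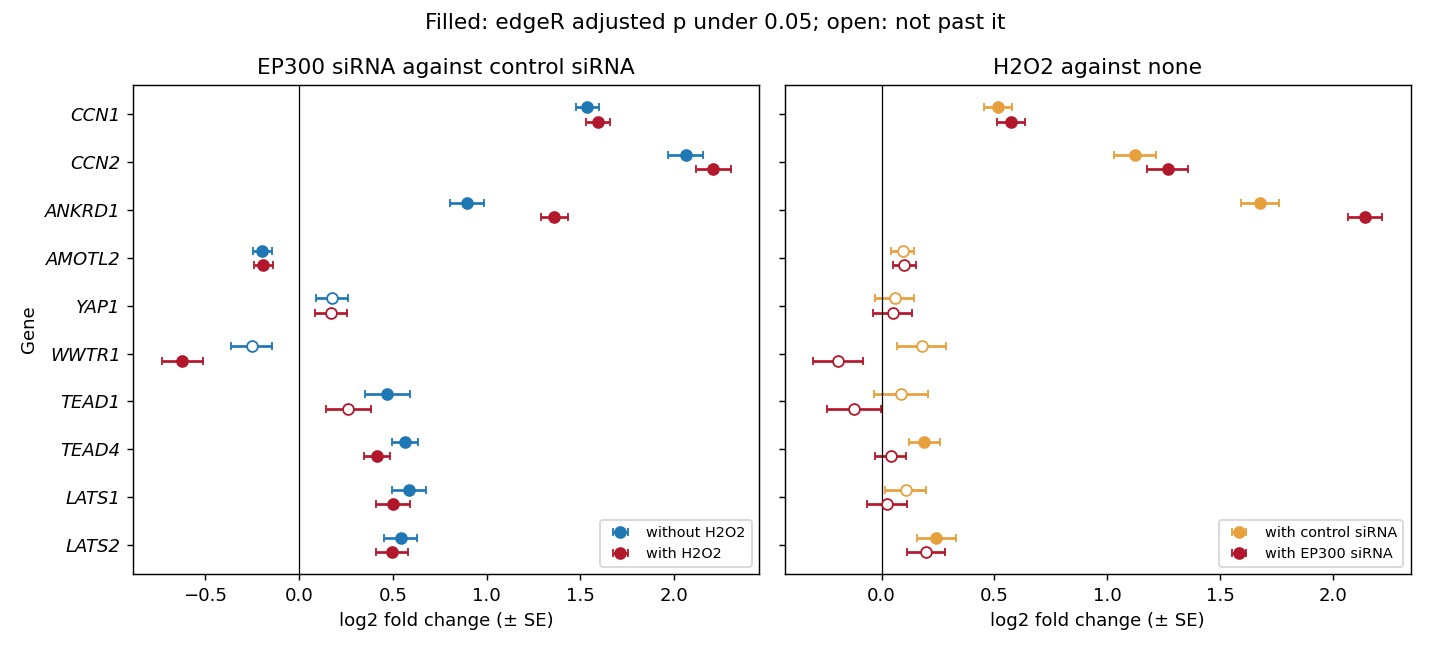
Log2 fold change ± SE (horizontal axes) of each gene (vertical axis) with EP300 siRNA, left, and with H2O2, right; filled points passed the edgeR test at an adjusted p under 0.05 and open points did not. CCN1, CCN2 and ANKRD1 are filled and above 0 in all 4 comparisons, from 0.52 to 2.21, and the 4 points of YAP1 are open.

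In H2O2-treated cells EP300 siRNA was followed by 6 of the 10 genes higher and 2 lower, where 28.4% of all genes were called higher and 30.6% lower (59% in either direction). The median over the 10 genes was 0.46, against -0.019 over all genes. The 2 lower genes were AMOTL2 and WWTR1. YAP1 and TEAD1 did not pass.

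The coactivators differed. YAP1, on chromosome 11 from 102110461 to 102233423 (plus strand), held 174, 144 and 149 CPM in siNC, 175, 169 and 185 CPM in siEP300, 144, 160.2 and 182 CPM in siNC.H2O2 against 191, 170.5 and 186 CPM in siEP300.H2O2. All of these groups overlapped with their comparison group. EP300 siRNA gave it log2 fold changes of 0.18 ± 0.09 without and 0.17 ± 0.09 with H2O2 (edgeR adjusted p = 0.082 and 0.1). The first passed without library 1 of siNC (0.26, edgeR adjusted p = 0.011) and without library 7 or 9 of siNC.H2O2 (adjusted p = 0.046 and 0.042). The second passed without library 1 of siNC or 9 of siNC.H2O2 (adjusted p = 0.048 and 0.014) and was 0.093 without library 7 of siNC.H2O2 (adjusted p = 0.36). With H2O2 the changes were 0.06 ± 0.09 and 0.05 ± 0.09 (edgeR adjusted p = 0.64 and 0.69).

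WWTR1, on chromosome 3 from 149517235 to 149736714 (minus strand), passed the test as lower with EP300 siRNA after H2O2. Its libraries held 113, 105 and 95.5 CPM in siNC and 87.3, 87.0 and 89.4 CPM in siEP300, without overlap, yet the log2 fold change of -0.25 ± 0.11 missed the threshold (edgeR adjusted p = 0.058). That value passed without library 3 of siNC (-0.31, adjusted p = 0.046) and without library 7 or 9 of siNC.H2O2 (adjusted p = 0.0082 and 0.02). In siNC.H2O2 it held 94.3, 119.9 and 141 CPM, the widest spread of the 4 groups, and in siEP300.H2O2 82.8, 74.9 and 72.9 CPM. There it fell by 0.62 (SE 0.11, edgeR adjusted p = 0.00019). The difference between these effects, -0.37 ± 0.16, did not pass (edgeR adjusted p = 0.23); it did without library 7 of siNC.H2O2 (-0.51, adjusted p = 0.016), while without library 9 it was -0.23 (adjusted p = 0.43). For H2O2 itself the log2 fold change of WWTR1 was 0.18 ± 0.11 with control siRNA (edgeR adjusted p = 0.22), a value that was 0.32 without library 7 of siNC.H2O2 (adjusted p = 0.0078) and 0.03 without library 9 (adjusted p = 0.82), and -0.19 ± 0.11 with EP300 siRNA (edgeR adjusted p = 0.2).

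FPKM, which scales fragments to gene length, lets the paralogs be compared with each other. WWTR1 made up 40.6%, 43.3% and 40.3% of the summed YAP1 and WWTR1 FPKM in siNC and 34.8%, 35.0% and 33.8% in siEP300. Its share was 40.4%, 44.05% and 44.98% in siNC.H2O2 and 31.0%, 31.5% and 29.3% in siEP300.H2O2. The share was thus lower in each EP300 siRNA library than in each control siRNA library. An exact permutation test of 3 against 3 libraries cannot go below 0.10, so these shares are given as values.

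Of the DNA-binding partners, TEAD4 rose with EP300 siRNA in both conditions and TEAD1 rose without H2O2. TEAD4, on chromosome 12 from 2959330 to 3040673 (plus strand), held 51.2, 53.1 and 52.2 CPM in siNC and 81.4, 73.9 and 76.0 CPM in siEP300. With H2O2 its libraries held 66.4, 56.2 and 55.8 CPM in siNC.H2O2 against 76.7, 82.5 and 78.7 CPM in siEP300.H2O2. The siRNA groups did not overlap in either pair. EP300 siRNA raised it by 0.56 ± 0.07 and 0.41 ± 0.07 (edgeR adjusted p = 6e-06 and 0.00012). The H2O2 effect with control siRNA, 0.19 ± 0.07, was just past the threshold (edgeR adjusted p = 0.047), and leaving out any library but 8 or 9 of siNC.H2O2 ended that call, with values of 0.10 to 0.20; without library 7 of siNC.H2O2 it was 0.10 (adjusted p = 0.23).

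TEAD1, on chromosome 11 from 12674591 to 12944483 (plus strand), varied more between libraries. It held 291, 214 and 238 CPM in siNC and 349.8, 322 and 358 CPM in siEP300, a rise of 0.47 ± 0.12 on the log2 scale (edgeR adjusted p = 0.0035). With H2O2 the groups overlapped, at 218, 265 and 306 CPM in siNC.H2O2 against 351, 282 and 313 CPM in siEP300.H2O2, and the log2 fold change of 0.26 ± 0.12 did not pass (edgeR adjusted p = 0.074). It passed without library 1 of siNC, 9 of siNC.H2O2 or 11 of siEP300.H2O2 (adjusted p = 0.031, 0.013 and 0.039), and it was 0.15 without library 7 of siNC.H2O2 (adjusted p = 0.29). Its H2O2 effects, 0.09 ± 0.12 with control siRNA and -0.12 ± 0.12 with EP300 siRNA, were not called (edgeR adjusted p = 0.62 and 0.47). Per length, TEAD4 carried more than TEAD1 in siNC, 39.1 ± 0.78 against 28.3 ± 4.64 FPKM (SD, n = 3), and of the FPKM summed over TEAD1 to TEAD4 its share averaged 33.7% in siNC, 39.8% in siEP300, and 37.7% and 42.8% in the H2O2-treated siNC.H2O2 and siEP300.H2O2. Counted as CPM, which is not scaled to length, the same share was 12.72% to 15.99%.

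Both kinases that restrain the coactivators were higher with EP300 siRNA. LATS1, on chromosome 6 from 149658153 to 149718256 (minus strand), held 47.1, 38.3 and 40.5 CPM in siNC and 61.3, 64.1 and 63.4 CPM in siEP300, and 41.0, 46.0 and 48.6 CPM in siNC.H2O2 against 71.6, 62.7 and 57.8 CPM in siEP300.H2O2. LATS2, on chromosome 13 from 20973032 to 21061547 (minus strand), held 65.7, 53.9 and 55.5 CPM in siNC and 84.5, 82.6 and 87.6 CPM in siEP300. In siNC.H2O2 LATS2 held 62.5, 66.8 and 77.7 CPM, and in siEP300.H2O2 104, 93.6 and 94.9 CPM. For both genes the siRNA groups did not overlap. LATS1 rose by 0.58 ± 0.09 without and 0.50 ± 0.09 with H2O2 (edgeR adjusted p = 5.5e-05 and 0.00023), and LATS2 by 0.54 ± 0.09 and 0.50 ± 0.09 (edgeR adjusted p = 7.1e-05 and 0.00015).

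The ratio of the 2 kinases varied little, with LATS2 at a mean of 65.2% of their summed FPKM in siNC, 64.0% in siEP300, and of 67.1% and 66.7% in siNC.H2O2 and siEP300.H2O2. Their patterns over the 12 libraries were also the closest of all 45 pairs among the 10 genes, with a root mean square difference of centred log2 CPM of 0.0957. That measure is not scaled to a gene's own spread, so genes that vary little lie closer by it. For LATS1 the log2 fold changes with H2O2 were 0.11 ± 0.09 and 0.02 ± 0.09 (edgeR adjusted p = 0.4 and 0.86). It raised LATS2 by 0.24 ± 0.09 with control siRNA (edgeR adjusted p = 0.041), a call that ended without library 2 or 3 of siNC, 4, 5 or 6 of siEP300, 8 or 9 of siNC.H2O2 or 12 of siEP300.H2O2, with values of 0.15 to 0.26 in those fits and 0.15 without library 9 (adjusted p = 0.19). With EP300 siRNA the H2O2 effect on LATS2 was 0.20 ± 0.08 (edgeR adjusted p = 0.089).

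Long transcripts as a class had higher fold changes with EP300 siRNA than shorter ones. The 2577 tested genes with a longest annotated transcript over 6000 bases, such as TEAD1 (8477) and LATS1 (7517), had a median log2 fold change of 0.16 with EP300 siRNA without H2O2 and 0.084 with it, against -0.045 and -0.040 in the other 10530. Mean centred log2 CPM of long minus other genes was 0.07, -0.19 and -0.11 in siNC, 0.12, 0.12 and 0.14 in siEP300, -0.20, -0.06 and 0.02 in siNC.H2O2 and 0.13, -0.04 and 0.01 in siEP300.H2O2. TEAD1, YAP1 and LATS1 were highest in library 1 within siNC, in 9 within siNC.H2O2 and in 10 within siEP300.H2O2, the libraries where this measure was highest in those groups. So were LATS2 and WWTR1, whose longest transcripts (5511 and 5030 bases) are under 6000 bases, as is that of YAP1 (5398). In siEP300 the measure was highest in library 6, as were TEAD1, YAP1, LATS2 and WWTR1, while LATS1 was highest in library 5. The part of this measure in the small rises of TEAD1, LATS1 and LATS2 was not tested. TEAD4, CCN1, CCN2 and ANKRD1 rose with longest transcripts of 1690, 2290, 2339 and 1979 bases.

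H2O2 with control siRNA was followed by 5 of the 10 genes higher and none lower by edgeR, nor any lower at an unadjusted p under 0.05 or by DESeq2; TEAD4 and LATS2 were near the threshold. Of all genes, 17.8% were called higher and 17.4% lower (35.3% in either direction). With EP300 siRNA it was followed by 3 higher, CCN1, CCN2 and ANKRD1, and again none lower by these 3 counts, where 15.9% and 15.1% of all genes were called (31.1% in either direction). The medians over the 10 genes were 0.18 and 0.075, against -0.0081 and -0.00038 over all genes. These comparisons share libraries with those of EP300 siRNA.

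The order of the genes by FPKM differed between the groups. In siNC CCN1 led with 342.5 ± 9.59 FPKM (SD, n = 3), followed by AMOTL2 (47.6 ± 2.06), TEAD4 (39.1 ± 0.78), CCN2 (39.1 ± 2.90), YAP1 (32.7 ± 3.46), TEAD1 (28.3 ± 4.64), WWTR1 (23.0 ± 2.03), LATS2 (12.0 ± 1.23), LATS1 (6.42 ± 0.72) and ANKRD1 (6.07 ± 0.49). Libraries of neighbours overlapped for TEAD4 and CCN2, YAP1 and TEAD1, TEAD1 and WWTR1, and LATS1 and ANKRD1. In siEP300.H2O2 CCN1 reached 1387 ± 101 FPKM, CCN2 came next at 369 ± 37.6, and ANKRD1 reached 46.9 ± 1.13, above AMOTL2 at 41.9 ± 0.45. CCN2 made up 10.1%, 10.8% and 9.78% of the summed CCN1 and CCN2 FPKM in siNC and 20.5%, 20.9% and 21.5% in siEP300.H2O2.

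**Figure D4:**
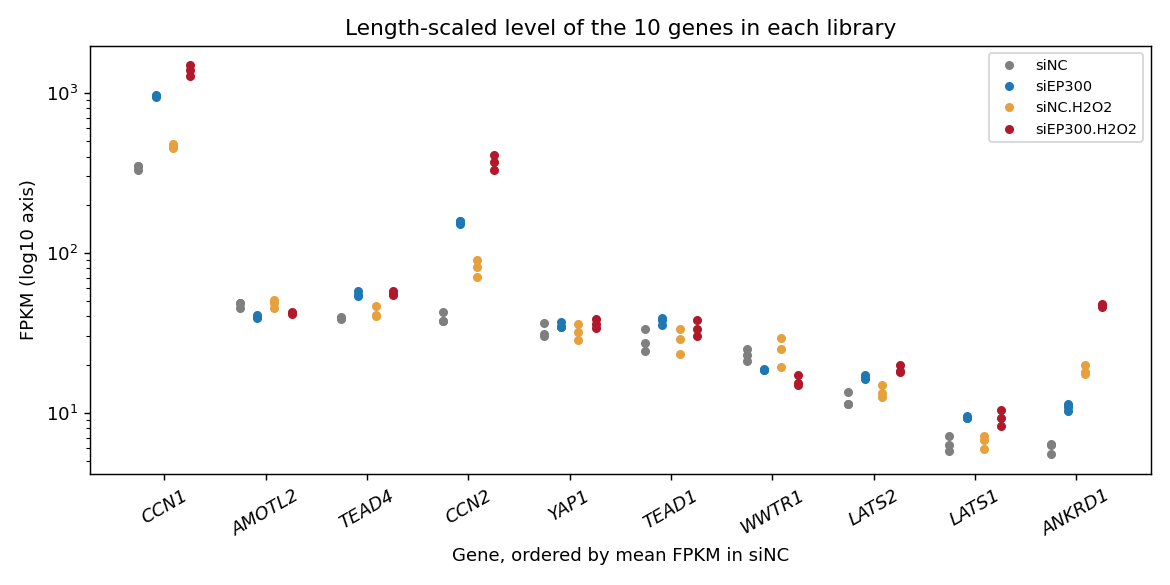
FPKM of each gene in each library (points, log10 axis), with genes ordered by their mean in siNC and groups by colour. ANKRD1 moves from last place in siNC, at 6.07 FPKM, to a level above AMOTL2 in siEP300.H2O2, at 46.9 FPKM, while YAP1, TEAD1 and AMOTL2 stay between 23.4 and 50.6 FPKM in every library.

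Of the other members of the CCN family, which share the domain plan of CCN1 and CCN2, CCN3 and CCN4 went in the opposite direction. Both were lower with EP300 siRNA in both conditions, where 31.4% and 30.6% of all genes were called lower. CCN5 held at most 0.273 CPM in siEP300 and 0.276 CPM in siEP300.H2O2 and passed the filter through its control siRNA libraries alone. Its lower level is therefore given as values and not counted with theirs. CCN4, a WNT-induced member, fell from 4.65 ± 0.49 to 0.76 ± 0.14 CPM (SD, n = 3; log2 fold change -2.61 ± 0.19, edgeR adjusted p = 2.6e-08), and with H2O2 its levels were 5.77 ± 0.79 and 1.10 ± 0.05 CPM (-2.39 ± 0.17, edgeR adjusted p = 2.4e-08). CCN5, which lacks the C-terminal domain of its relatives, was at 1.76 ± 0.20 against 0.24 ± 0.03 CPM (log2 fold change -2.84). With H2O2 CCN5 held 17, 9 and 13 counts in siNC.H2O2 and 5, 2 and 1 in siEP300.H2O2 (log2 fold change -2.25). CCN3 fell by 0.39 (SE 0.08) and by 0.35 (SE 0.08), with edgeR adjusted p of 0.00044 and 0.00097. CCN6 averaged at most 0.0347 CPM in any group and was not tested.

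Other genes of the Hippo core kinase cassette and its regulators were called in either direction about as often as genes at large. Of 23 genes, all of which passed the filter, 7 were higher and 7 lower with EP300 siRNA without H2O2, and 6 and 7 with it, with medians of 0.011 and -0.084. Of all genes, 30.1% and 31.4% were called without H2O2, and 28.4% and 30.6% with it. SAV1, the scaffold that couples the MST kinases to LATS, fell by 1.03 (SE 0.07, edgeR adjusted p = 2e-08) and by 0.88 (SE 0.07, edgeR adjusted p = 1.2e-07). TAOK2, a kinase that can activate MST, fell by 0.85 and 0.81. DCHS1, an atypical cadherin that binds FAT4, fell from 54.2 ± 7.37 to 17.6 ± 0.47 CPM without H2O2 and was at 50.1 ± 4.21 against 11.5 ± 0.80 CPM with it (-1.62 ± 0.10 and -2.12 ± 0.10, edgeR adjusted p = 3.4e-09 and 3.9e-10). WWC3, of the KIBRA family, fell by 0.76 and 1.27. KIBRA itself, WWC1, rose by 0.70 ± 0.08 and 0.67 ± 0.08 (edgeR adjusted p = 1.5e-06 and 2.5e-06). In H2O2-treated cells against none, 5 rose and 4 fell with control siRNA, where 17.8% of all genes were called higher and 17.4% lower. With EP300 siRNA 5 rose and 5 fell, where 15.9% and 15.1% of all genes were called.

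Of 5 other measured TEAD paralogs and cofactors, a list without TEAD1 and TEAD4, 0 rose and 1 fell with EP300 siRNA in each condition. Of all genes, 30.1% were called higher and 31.4% lower without H2O2, and 28.4% and 30.6% with it. TEAD2 fell by 0.36 without H2O2 (SE 0.07, edgeR adjusted p = 0.00041), and VGLL4, a cofactor that competes with YAP for TEAD, fell by 0.35 with it (SE 0.07, edgeR adjusted p = 0.00083). TEAD3 had log2 fold changes of 0.12 ± 0.05 and -5.0e-05 ± 0.05 (edgeR adjusted p = 0.05 and 1).

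In a list of 17 genes of a common YAP/TAZ target signature, PTPN14 was also counted with the Hippo genes above. Of the 17, 6 rose and 4 fell with EP300 siRNA without H2O2 (median 0.11), where 30.1% of all genes rose and 31.4% fell. With H2O2 7 rose and 8 fell (median -0.16), where 28.4% of all genes rose and 30.6% fell. Tissue factor F3, the starter of coagulation, rose by 1.51 ± 0.06 and 1.40 ± 0.06, from 39.9 ± 1.53 to 114 ± 6.08 CPM and from 112 ± 5.88 to 297 ± 1.48 CPM (edgeR adjusted p = 8.1e-11 and 7.6e-11). NT5E, which makes adenosine at the cell surface, rose by 1.19 ± 0.07 and 0.82 ± 0.06, and IGFBP3 by 1.05 ± 0.08 and 0.29 ± 0.08 (edgeR adjusted p of 0.0068 or lower). The effects with and without H2O2 differed for IGFBP3 by -0.76 ± 0.11 (edgeR interaction, adjusted p = 0.0022). For NT5E the difference was -0.37 ± 0.09 (adjusted p = 0.042), a call lost in 11 of 19 alternatives, with adjusted p of up to 0.12. FOXF2, a mesenchymal transcription factor, fell by 1.08 and 1.16 (SE 0.14 and 0.15). With H2O2 and control siRNA 11 of the 17 rose and 2 fell (median 0.43; 17.8% and 17.4% of all genes), and with EP300 siRNA 6 rose and 3 fell (median 0.12; 15.9% and 15.1% of all genes).

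Several YAP targets are also read by SRF and its cofactors MRTF, so 14 cytoskeletal genes of that kind were counted beside them. With EP300 siRNA 9 rose and 3 fell without H2O2 and 8 rose and 4 fell with it (medians 0.26 and 0.30), against 30.1% and 31.4%, and 28.4% and 30.6%, of all genes. The tropomyosins TPM4 (1.61 ± 0.06 and 1.29 ± 0.06) and TPM2 (1.13 ± 0.10 and 1.07 ± 0.10) and smooth muscle actin ACTA2 (0.72 ± 0.16 and 0.86 ± 0.12) rose, with edgeR adjusted p of 0.0011 or lower. CNN1, a smooth muscle calponin, fell from 44.97 ± 0.65 to 15.98 ± 0.75 CPM without H2O2 and was at 42.2 ± 3.06 against 16.8 ± 0.84 CPM with it (-1.49 ± 0.07 and -1.33 ± 0.07, edgeR adjusted p = 3.4e-10 and 1e-09). H2O2 was followed by 9 of the 14 higher and 0 lower with control siRNA, where 17.8% of all genes were called higher and 17.4% lower. With EP300 siRNA it was followed by 8 higher and 0 lower, where 15.9% and 15.1% of all genes were called.

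**Figure D5:**
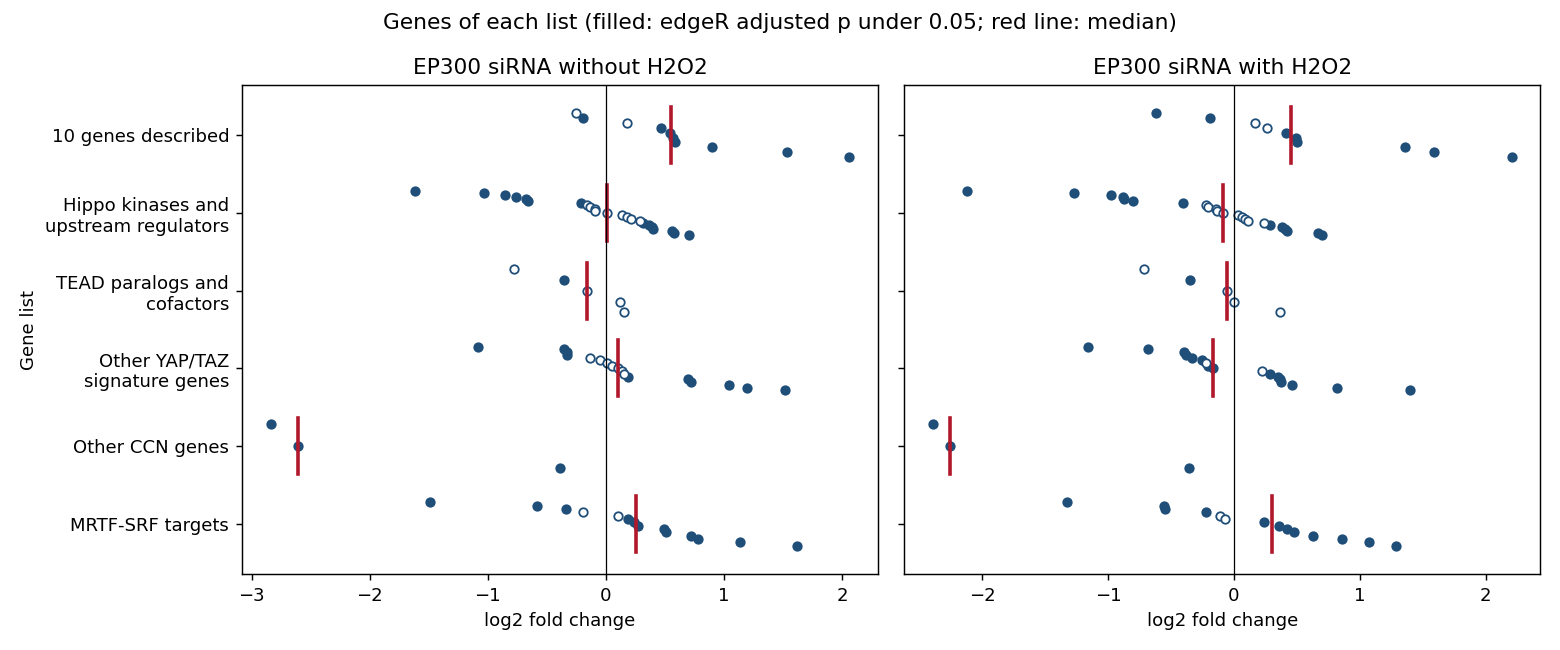
Log2 fold change with EP300 siRNA without H2O2 (left) and with H2O2 (right) for each gene of 6 lists (vertical axis); filled points passed the edgeR test at an adjusted p under 0.05, open points did not, and the red line is the list's median. The medians of the 10 described genes are 0.55 and 0.46. Of the other CCN genes, CCN3 and CCN4 lie below 0. CCN5 is drawn with them, although it passed the filter through its control siRNA libraries alone.

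For a search by pattern, symbols that read as pseudogene, antisense, clone or noncoding types were first left out. That rule also dropped coding genes whose symbol ends in P and digits, such as IGFBP3, so nearer genes may be missing. Among the 9850 other genes kept that averaged 5 CPM or more, distance was the root mean square difference of centred log2 CPM over the 12 libraries. Those with the smallest distance were taken as nearest in pattern. For CCN1, whose own SD was 0.87, they were MGLL (0.129), NOLC1 (0.134) and BAZ1A (0.137), with a median of 0.84 over all candidates. For CCN2 they were TFPI2 (0.18), CD274 (0.231) and KISS1 (0.307), for ANKRD1 ACTA2 (0.309), SEMA7A (0.328) and F3 (0.332), and for YAP1 MAP4K3 (0.041), IDS (0.0417) and WRN (0.042). The own SD of CCN2, ANKRD1 and YAP1 was 1.28, 1.16 and 0.143, and the median over all candidates 1.23, 1.12 and 0.243. Between CCN1 and CCN2 the difference was 0.439, and between CCN2 and ANKRD1 0.642.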

How the data were processed

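The authors deposited estimated counts per gene symbol and FPKM for the same symbols in 12 libraries; the count and FPKM units were read from the values and, for FPKM, per the file headers and names. The submitters' processing notes list HISAT, Bowtie2 and GRCh38.p13; tool roles, the counter, the annotation and strand setting were not given in the sources used here. Per library, between 12.0% and 13.8% of counts were not whole and were rounded. Tests used edgeR 4.0.16 in R 4.3.3 (quasi-likelihood, TMM factors of 0.969 to 1.05, filterByExpr, 1 mean per group over all 12 libraries, two-sided, Benjamini-Hochberg over 13171 genes, threshold 0.05). CPM are relative to TMM-scaled totals, and directions are relative to the bulk of genes. SEs of log2 fold changes follow from the fit's F statistic. On simulated counts over 13060 genes, for EP300 siRNA without H2O2, 84% of 100 genes changed 1.5-fold and 87% of 100 changed 2-fold were recovered, and 6 unchanged genes were called. For the interaction, over 13059 genes, 58% and 83% of 100 were recovered at these folds, and 7 unchanged genes were called. These simulations changed few genes, in random directions, with noise drawn independently for each library. In the data 61.5% of genes were called for EP300 siRNA without H2O2, so these rates are not error rates of the real comparisons.

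Gene coordinates are from GENCODE 29 (GRCh38). Antisense genes share exon bases with CCN2, YAP1, WWTR1 and LATS1, and with no strand setting given their reads cannot be told apart. The members and lists were chosen with earlier results of these data known. Named are the members, EP300, up to 4 genes per list with the largest changes called in both EP300 siRNA comparisons, and the 3 nearest patterns of 4 members; TEAD2, TEAD3, VGLL4, CCN6, WWC1 and the marker genes were named after their values were seen. Alternatives were DESeq2 1.42.0, RLE scaling, 2 other filters, limma 3.58.1 on log2 FPKM with pseudocounts of 1 and 0.1, fits of the 2 groups compared, leaving out each library and, added after seeing the data, a covariate for the long-transcript measure. That covariate was centred within each group, so it could not adjust a difference between groups for transcript length.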

Additional observations from a re-analysis of the deposited data

Results flagged for a closer look

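The EP300 siRNA effect on ANKRD1 differed between H2O2-treated and untreated cells by 0.47 ± 0.11 on the log2 scale (edgeR interaction term, adjusted p = 0.038), with 1.36 in treated and 0.90 in untreated cells. All 3 siEP300.H2O2 libraries (68.3 to 73.0 CPM) lay above all 9 others (at most 30.3 CPM). The same order held for CCN1 and CCN2, whose differences of 0.06 and 0.15 did not pass the interaction test, so the order does not bear on it. The ANKRD1 call was lost when any of 9 libraries was left out.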

How the results depend on the processing

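No paired analysis was possible because the replicate numbers run from 1 to 12 and no 2 groups share one. Of 25 calls on the 10 genes, 22 kept direction and side of the threshold in all alternatives, those with EP300 siRNA among them, and none reversed; TEAD4 and LATS2 with H2O2 and control siRNA, and the ANKRD1 interaction, did not. With EP300 siRNA and no H2O2, 2 of the 10 genes in place of 1 were lower, WWTR1 being added, with limma on FPKM at either pseudocount, with only the 2 groups compared and with the length covariate, and 1 to 2 on leaving out a library (2 without siNC 3, siNC.H2O2 7 or siNC.H2O2 9). With H2O2 and control siRNA, 3 in place of 5 were higher with limma on FPKM at either pseudocount and with only the 2 groups compared, and 3 to 5 on leaving out a library (3 without siNC 2 or 3, siEP300 4, 5 or 6, or siEP300.H2O2 12). With H2O2 and EP300 siRNA, 1 was lower with only the 2 groups compared. The covariate for the long-transcript measure, chosen after seeing the data and centred within each group, gave 5 higher, 2 lower and 6329 genes called in that comparison. For the interaction it gave 2 lower and 2042 genes called, in place of 0 and 439. Being centred, it could not show whether any call depends on a length difference between groups. Leaving out a library gave 0 to 1 of the 10 genes higher, 0 to 1 lower and 196 to 709 genes called for the interaction (681 without siNC 1, 709 without siNC.H2O2 7, and 196 to 252 without siNC 2 or 3, siEP300 4, 5 or 6, siNC.H2O2 8, or siEP300.H2O2 11 or 12). The cause was not tested.

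Values that changed sign were all uncalled. On FPKM at pseudocounts of 1 and 0.1, YAP1 was -0.02173 and -0.02237 for H2O2 with control siRNA, LATS1 -0.009353 and -0.01078 for H2O2 with EP300 siRNA, and YAP1 0.05544 and 0.0569 for the interaction. On leaving out a library, H2O2 with control siRNA gave EP300 -0.2517 to 0.03158, YAP1 -0.03449 to 0.1355 and TEAD1 -0.03883 to 0.2093, and H2O2 with EP300 siRNA gave LATS1 -0.06663 to 0.09046. The interaction ran from -0.004443 to 0.1182 for CCN1, -0.02716 to 0.04017 for AMOTL2, -0.08747 to 0.0819 for YAP1 and -0.1308 to 0.04943 for LATS2. Counts of CCN5 with H2O2 and EP300 siRNA, 5, 2 and 1, limit the precision of its fold.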
